A study of Mus musculus with 3 samples.

Results

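The 4 Hox clusters are arrays of neighbouring homeobox genes, HoxA, HoxB, HoxC and HoxD, whose accessible chromatin was examined here in the dentate gyrus of adult mice. The members are the ATAC-seq peaks that overlap 1 of 4 intervals of the mouse build mm9. The intervals are defined by position, but they were chosen with earlier results of these data known. HoxA is the interval on chromosome 6 from 52090001 to 52230000, HoxB that on chromosome 11 from 96040001 to 96240000, HoxC that on chromosome 15 from 102740001 to 102880000, and HoxD that on chromosome 2 from 74480001 to 74620000. Together they span 620 kb and stand for 38 listed Hox genes. When peaks of different animals that overlap by at least 1 bp were joined into regions, 3 of the 84529 regions of the series lay in these intervals. The 500 kb on each side of every interval served as flanks and held 119 regions.

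ATAC-seq cuts open DNA with the transposase Tn5, so a peak marks a place where reads piled up because the chromatin was accessible. The data are 3 peak lists, 1 for each of 3 C57BL/6 mice aged 8 weeks, all made from microdissected dentate gyrus, the granule neuron layer and its surroundings in the hippocampus. All 3 belong to a group named E24, a code whose meaning is not explained in the labels. The series asks how neuronal activation alters accessibility, but no unstimulated group was analysed here, so nothing below compares conditions. Replicates 1, 2 and 3 had 62912, 68699 and 48769 peaks, and replicate 3 also had narrower peaks (a median of 353 bp against 504 bp in both others). Read depth is not in the files, so a stretch without a peak is one where no peak was reported, which does not show that its chromatin was closed. Dissected tissue mixes cell types, and which cells gave a peak cannot be told apart. Since no annotation of the build mm9 was used, neither marker genes nor single Hox genes were assigned to peaks.

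Hox genes encode homeodomain transcription factors that give cells of the embryo their position along the head-to-tail axis. In each cluster the genes stand in a row, and their place in the row follows where along the body they act. In the nervous system their main domain is the hindbrain and spinal cord. In the forebrain, which includes the hippocampus, they are generally described as silent and held under Polycomb repression. Neither their expression nor Polycomb was measured here. In the RefSeq gene table for GRCm38, in which all 38 genes were found, HoxA runs from Hoxa2 at its low end to Hoxa13, HoxB from Hoxb13 to Hoxb1, HoxC from Hoxc13 to Hoxc4 and HoxD from Hoxd13 to Hoxd1. Genes of low number, such as Hoxb1 and Hoxa2, pattern the hindbrain, and those of high number, such as Hoxa13 and Hoxd13, pattern the limb ends and the tail region. The rows also hold microRNA genes, namely Mir196b in HoxA, Mir196a-1 and Mir10a in HoxB, Mir196a-2 and Mir615 in HoxC, and Mir10b in HoxD.

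No animal had a peak anywhere in HoxB or HoxC. The 19 listed genes of these clusters therefore had no peak at their start sites in any list, as far as the intervals hold the genes as the definition states. Of these 19, the promoter table from RefSeq (GRCm38.p6) holds 4, and the 250 bases before their start are printed to show what kind of sequence lay without a peak. They run 5′ to 3′ on the gene's strand, with each CG dinucleotide, the site of DNA methylation, in capitals.
Hoxb1: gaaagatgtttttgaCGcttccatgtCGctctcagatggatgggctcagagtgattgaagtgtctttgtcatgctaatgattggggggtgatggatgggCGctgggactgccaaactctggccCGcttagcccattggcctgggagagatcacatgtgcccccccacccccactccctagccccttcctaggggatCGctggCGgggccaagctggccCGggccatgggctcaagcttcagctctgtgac
Hoxb4: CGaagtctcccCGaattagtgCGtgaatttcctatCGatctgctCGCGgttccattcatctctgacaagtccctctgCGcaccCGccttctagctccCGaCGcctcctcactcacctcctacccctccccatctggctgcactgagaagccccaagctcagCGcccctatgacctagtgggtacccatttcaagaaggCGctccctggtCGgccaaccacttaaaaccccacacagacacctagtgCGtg
Hoxb8: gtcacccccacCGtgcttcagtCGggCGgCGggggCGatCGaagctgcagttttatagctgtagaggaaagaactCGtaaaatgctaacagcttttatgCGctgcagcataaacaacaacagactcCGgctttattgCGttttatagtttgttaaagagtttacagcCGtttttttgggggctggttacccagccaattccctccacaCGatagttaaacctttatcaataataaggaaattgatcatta
Hoxc4: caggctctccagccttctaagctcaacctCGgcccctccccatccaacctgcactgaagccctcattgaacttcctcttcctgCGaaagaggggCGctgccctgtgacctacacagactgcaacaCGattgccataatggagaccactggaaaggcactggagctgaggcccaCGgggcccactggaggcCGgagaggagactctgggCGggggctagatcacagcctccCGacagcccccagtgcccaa
Hoxb1, which sets the identity of a hindbrain segment, lies on the plus strand, and its printed bases are chr11:96365508-96365757 in GRCm38. Those of Hoxb4, known from blood stem cells and the neck region, are chr11:96318017-96318266, and those of Hoxb8, which acts in the trunk and in myeloid cells, are chr11:96281655-96281904. Those of Hoxc4, at the opposite end of its row from Hoxc13, are chr15:103034145-103034394. These positions were not carried over to mm9.

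All 4 promoters had more CG than the median promoter. Hoxb4 had 14 CG dinucleotides in its 250 bases, Hoxb8 had 12, Hoxc4 had 8 and Hoxb1 had 7, against a median of 6 over 32851 promoters in the table. As many as in Hoxb4 were found in 29.4% of all promoters, and as many as in Hoxb1 in 46.3%. Over the 22 Hox genes in the table, with 24 promoters, the median was 12.5 and the range 2 to 35. Of these 24 promoters, 19 lay above the median of all promoters, as did 46.3% of all promoters in the table. Hoxa13, a gene of digit and genital development, had the most (35, a number reached by 2.97% of all promoters), followed by its HoxD counterpart Hoxd13 (31). The fewest, 2, were at 1 of the 2 promoters listed for Hoxd11, whose other promoter had 20. CG was the one motif searched, and as it reads the same on both strands each site was counted once. The share of promoters of any gene with a peak could not be computed without gene positions in mm9.

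HoxA held the only region shared by the animals, on chromosome 6 from 52171524 to 52172051 (528 bp), and it was the widest region in any of the 4 clusters. It began 81.5 kb above the low limit of the interval, 58.2% of the way along the interval towards the Hoxa13 end. Replicate 1 had a peak of 487 bp there, replicate 2 one of 528 bp and replicate 3 one of 375 bp. The 3 peaks nested within each other, with starts spread over 29 bp and ends over 124 bp, and 375 bp (71.0% of the region) were common to all. Strength was read as the percentile of the deposited score within its own list, the percentage of that list's peaks with a lower score. The HoxA peak stood at 44.8 in replicate 1, 59.1 in replicate 2 and 57.5 in replicate 3, a mean of 53.8 ± 7.8 (SD, n = 3). It was thus a middling peak of each list, with no animal far from the others. Among the 36824 regions of the series held by all 3 animals, 34.2% had a lower mean percentile, and among the 55 such regions in the flanks, 20 did. Which Hox gene it lies in or next to was not determined.

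HoxD held 2 regions, each seen in 1 animal. The first, on chromosome 2 from 74553909 to 74554204 (296 bp), was a peak of replicate 2 at percentile 6.26 of its list, 73.9 kb above the low limit and so close to the middle of the interval. The second, from 74600890 to 74601171 (282 bp), was a peak of replicate 1 at percentile 15.9, 120.9 kb above the low limit, towards the Hoxd1 end. Hoxd1 is known for its role in pain-sensing neurons. Replicate 3, the shortest list, had no HoxD peak. Both peaks were weak, near the lowest scores reported, and neither was found in a second animal. Over the 3 regions of the clusters, 1 was held by all animals, against 43.6% of all regions of the series and 46.2% of the flank regions. With 3 regions, this share cannot be set apart from either.

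**Figure D1:**
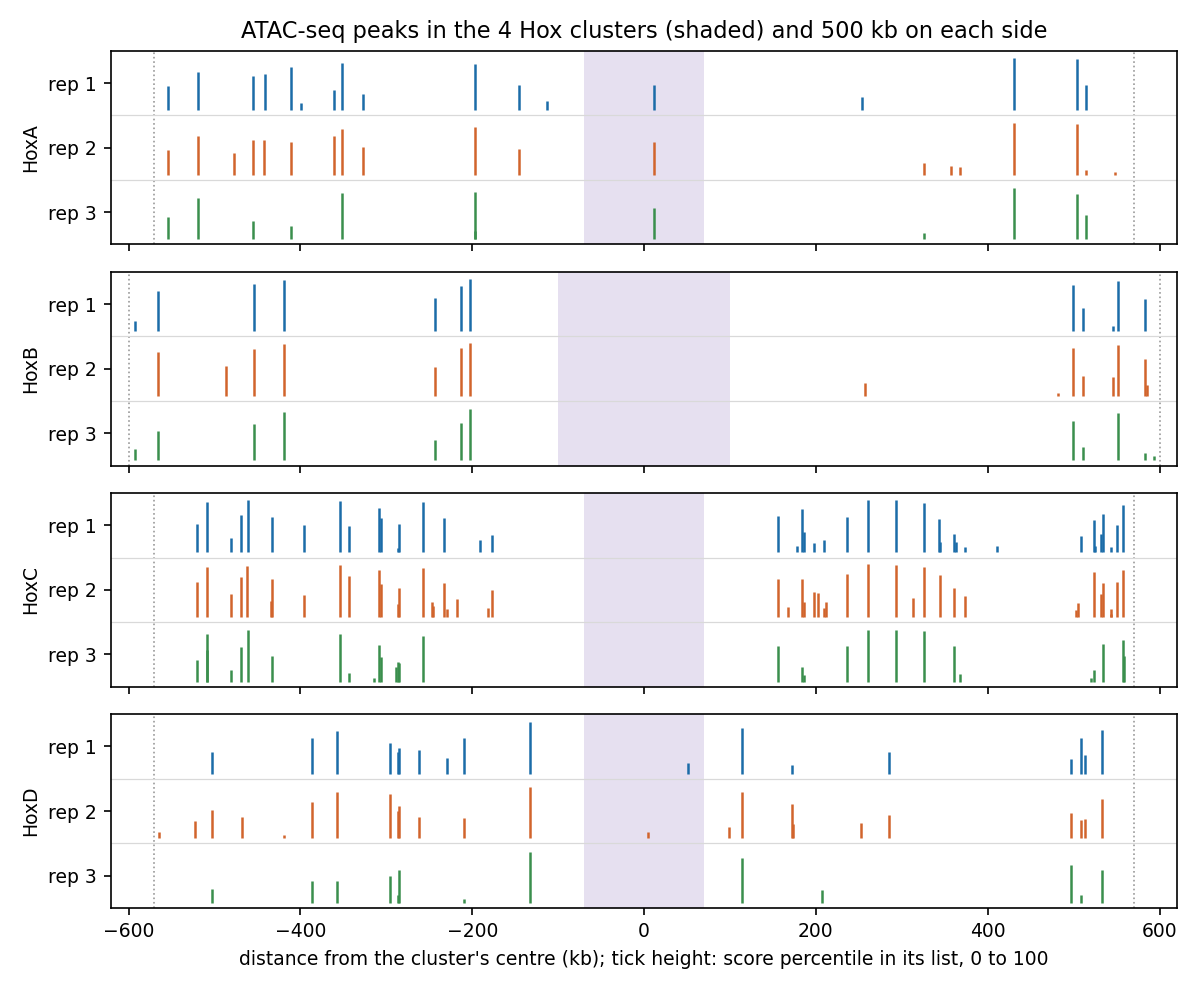
Each panel shows 1 Hox cluster (shaded) with 500 kb on each side (dotted lines mark the outer ends), and each vertical tick is a peak of replicate 1, 2 or 3 at its distance in kb from the cluster's centre, taller for a higher score percentile in its list. HoxB and HoxC are empty in all 3 rows, HoxA has 1 peak per animal at the same place, and HoxD has a short tick in replicate 1 and another in replicate 2.

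Peaks were 8.29 ± 1.80 times denser in the flanks than in the clusters (SD, n = 3). Replicate 1 had 2 peaks in the 4 clusters and 86 in the flanks, replicate 2 had 2 and 103, and replicate 3 had 1 and 66. At the density of their own flanks, the clusters would have held 13.33, 15.97 and 10.23 peaks. Per 100 kb, the clusters had 0.323, 0.323 and 0.161 peaks and the flanks 2.15, 2.575 and 1.65, so the flanks were 6.67, 7.98 and 10.23 times as dense. The mean ratio of cluster to flank was 0.124 ± 0.026 (SD, n = 3), lower than 1 in 3 of 3 animals. The autosomes as a whole had 2.51, 2.75 and 1.95 peaks per 100 kb. The flanks thus reached 0.880 ± 0.050 of the autosomal density (SD, n = 3) and the clusters 0.110 ± 0.024. An exact two-sided sign-flip test over the 3 animals gave p = 0.25 for the log2 ratio of cluster to flank, which is the smallest p that 3 animals allow. All 3 animals were measured at the same loci, so the test says nothing of how common such a contrast is elsewhere in the genome.

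The covered share, the percentage of bases under a peak, was lower in the clusters in every animal as well. It was 0.124% of the clusters in replicate 1, 0.133% in replicate 2 and 0.0605% in replicate 3, against 1.46%, 1.79% and 0.717% of the flanks. The ratio of cluster to flank was 0.081 ± 0.006 (SD, n = 3), with the same smallest possible p of 0.25 in the exact sign-flip test. The autosomal shares were 1.53%, 1.71% and 0.846%. Widths did not separate in one direction. The median cluster peak was 384.5, 412 and 375 bp wide in replicates 1, 2 and 3, and the median flank peak 538, 513 and 371 bp, so that the ratio of 0.843 ± 0.152 was below 1 in 2 of 3 animals (exact sign-flip p = 0.5). Median score percentiles were 30.4, 32.7 and 57.5 in the clusters and 57.3, 50.7 and 47.3 in the flanks. Their difference, cluster minus flank, was -11.6 ± 19.4 points (SD, n = 3; exact sign-flip p = 0.5). These medians rest on 1 or 2 cluster peaks per animal, and replicate 3, which had the HoxA peak alone, went against the other two.

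Counted per gene, the contrast was wider, which follows from how closely the Hox genes are packed. The lists held 0.0526, 0.0526 and 0.0263 cluster peaks per listed Hox gene in replicates 1, 2 and 3. On the autosomes they held 2.93, 3.21 and 2.27 peaks per protein-coding gene of the RefSeq table, which names 20661 such genes. Peaks far from any gene count in the second value, and genes other than the listed ones were left out of the first. The 38 listed genes share 620 kb, and the 20661 autosomal genes about 2.41e+09 bp. The wider contrast therefore adds nothing on accessibility to the density itself.

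The low density did not end at the limits of the clusters. In the first 100 kb outside, on both sides of the 4 clusters, replicates 1, 2 and 3 had 5, 6 and 3 peaks, or 0.625, 0.75 and 0.375 per 100 kb. From 100 to 500 kb outside they had 81, 97 and 63 peaks, or 2.53, 3.03 and 1.97 per 100 kb. Over the 4 clusters together, these densities were close to the autosomal values. HoxC weighed most in them, since its whole flanks gave 41, 47 and 30 of the 86, 103 and 66 flank peaks. The whole flanks of HoxA, HoxB and HoxD were sparser than the autosomes in every animal. The inner part of the flanks thus had 0.228 ± 0.033 of the density of the outer part (SD, n = 3). Against the inner 100 kb alone, the clusters stood at 0.459 ± 0.050, and against the outer part at 0.105 ± 0.023, so the size of the contrast depends on where the flank begins. This division was chosen after its values were seen. By joined regions, 7 of the 119 flank regions lay within 100 kb of a cluster: 3 beside HoxD, 2 beside HoxA, 2 beside HoxC and 0 beside HoxB.

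**Figure D2:**
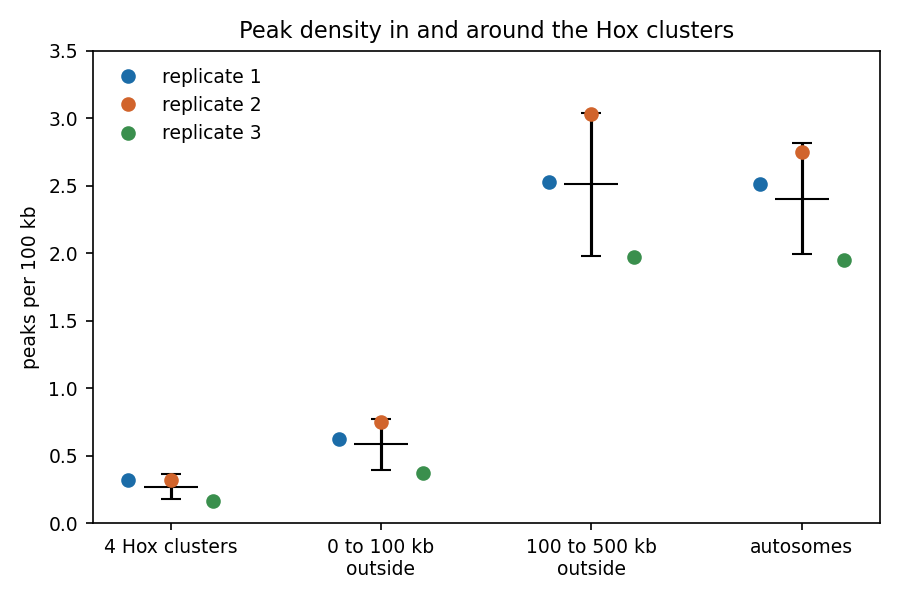
Points give the peaks per 100 kb of each animal in the 4 Hox clusters, in the first 100 kb outside them, from 100 to 500 kb outside and on the autosomes, with the mean (long bar) and SD over 3 animals (whiskers). The clusters (0.161 to 0.323) and the inner flanks (0.375 to 0.75) lie below the outer flanks (1.97 to 3.03) in every animal.

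**Figure D3:**
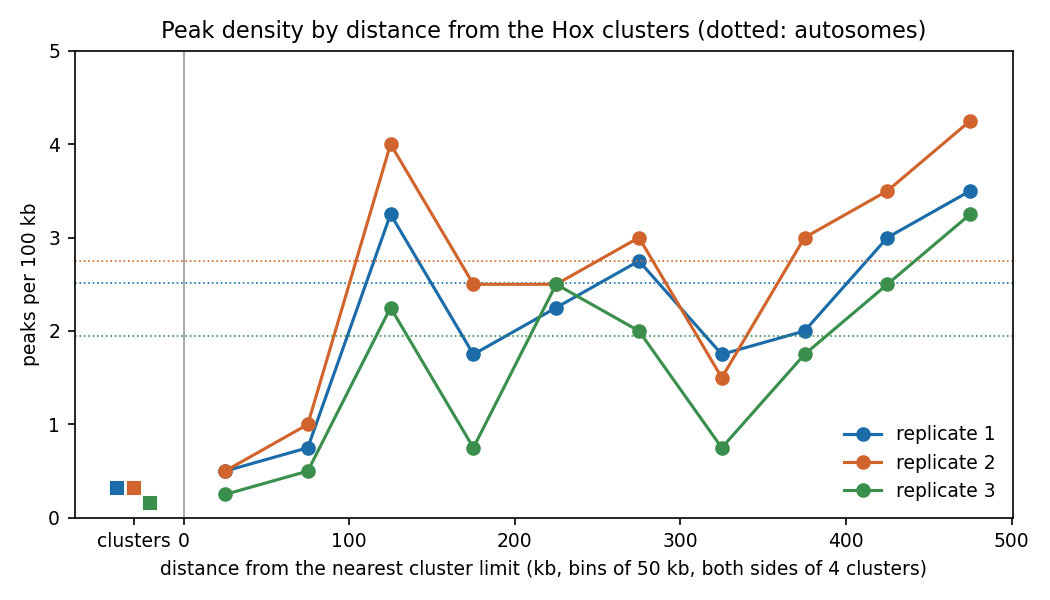
Peaks per 100 kb are plotted against the distance in kb from the nearest cluster limit in bins of 50 kb, summed over both sides of the 4 clusters, with squares for the clusters themselves and dotted lines for each animal's autosomal density. From 0 to 50 kb the 3 animals had 0.25 to 0.5 peaks per 100 kb, from 50 to 100 kb 0.5 to 1, and from 100 to 150 kb 2.25 to 4.

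The clusters differed in their surroundings. HoxC lay in the richest one, with 41, 47 and 30 flank peaks in replicates 1, 2 and 3 (3.93 ± 0.86 per 100 kb, SD, n = 3), and had none inside. Of its 56 flank regions, however, only 2 lay within 100 kb of the cluster. The flanks of HoxB had 12, 15 and 12 peaks (1.30 ± 0.17 per 100 kb), those of HoxA 16, 18 and 11 (1.50 ± 0.36) and those of HoxD 17, 23 and 13 (1.77 ± 0.50). The flanks of HoxA, HoxB and HoxD were sparser than the autosomes in every animal, and those of HoxC denser. HoxC gave 41 of the 86 flank peaks of replicate 1, 47 of the 103 of replicate 2 and 30 of the 66 of replicate 3, so the density of all flanks together rests largely on it. Around HoxA the low side, beyond Hoxa2, had 12, 11 and 7 peaks and the high side, beyond Hoxa13, had 4, 7 and 4, with more on the low side in each animal. In HoxD the low side also had more, with 10, 13 and 8 against 7, 10 and 5. The other 2 clusters had no such side. HoxB had 7, 7 and 7 on the low side against 5, 8 and 5. HoxC had 17, 22 and 16 against 24, 25 and 14. By joined regions, low against high side was 13 against 8 (HoxA), 8 against 9 (HoxB), 25 against 31 (HoxC) and 14 against 11 (HoxD). The animals share many of these regions, so agreement between them does not replicate a side difference, and no such difference was tested. Leaving HoxC out raised the ratio of cluster to flank to 0.225 ± 0.052, and leaving out HoxA, with the 1 shared region, lowered it to 0.054 ± 0.048 (SD, n = 3).

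Each cluster lay within or beside a long stretch without a peak in any animal. The HoxB interval was part of a stretch on chromosome 11 from 95937650 to 96397548, 459.9 kb long, which ran 102.4 kb below the interval and 157.5 kb above it. That upper end was a weak peak of replicate 2 alone (percentile 20.5). In replicates 1 and 3 the next peak above stood 398.6 and 398.8 kb from the limit. The HoxC interval was part of a stretch of 332.5 kb on chromosome 15 from 102633123 to 102965645, reaching 106.9 kb below and 85.6 kb above. The upper end was the same in the 3 animals, a region from 102965646 to 102966430 with a mean percentile of 67.5. The longest stretch at HoxA, 241.3 kb from 52172052 to 52413342 on chromosome 6, began at the shared peak and took in the Hoxa13 end of the interval and 183.3 kb beyond. Its upper end was a weak peak of replicate 1 alone (percentile 20.8). For replicates 2 and 3 the next peak above stood 255.1 and 255.2 kb from the limit. At HoxD the longest, 136.4 kb from 74417539 to 74553908 on chromosome 2, took in the Hoxd13 end and 62.5 kb below it.

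The nearest regions held by all 3 animals on either side of the clusters had mean percentiles from 67.5 (above HoxC) to 98.2 (below HoxB). Below HoxD, the region from 74416170 to 74417538 (1369 bp) stood at percentiles 96.5, 96.8 and 95.7, and above it the region from 74663528 to 74664586 (1059 bp), 43.5 kb from the limit, at 85.46, 87.35 and 83.98. Below HoxB, the region from 95936673 to 95937649 (977 bp) stood at 98.6, 98.9 and 97.1. Above HoxA, the nearest region held by all 3 lay 359.7 kb away, from 52589719 to 52590839, at 97.6, 96.9 and 96.2. These 4 regions were wider than the shared region inside HoxA and ranked higher in each animal. The nearest shared regions on the other sides were so too. The lowest-ranked of those, above HoxC (785 bp), stood at 66.3, 69.9 and 66.1. All are named as the nearest shared regions, a choice made after their values were seen, as was the choice of the 4 given in full.

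Stretches of this length were few among all gaps between neighbouring regions of the autosomes, but they make up a sizeable part of the genome. Of 81471 autosomal stretches, with a median of 14.9 kb, 0.155% were as long as that of HoxB, 0.336% as that of HoxC, 0.739% as that of HoxA and 2.56% as that of HoxD. By length, stretches as long as that of HoxB took up 4.74% of the autosomes, and those as long as that of HoxD 21.6%. Cut into windows of the cluster's own length, 6.18% of the autosomal windows of 200 kb held no region, like HoxB, and 9.54% of those of 140 kb, like HoxC. At most 1 region, as in HoxA, was found in 19.4% of the windows of 140 kb, and at most 2, as in HoxD, in 30.3%. The counts of HoxA and HoxD alone are therefore common ones. These windows include gene-poor parts and assembly gaps, which were not separated out. In windows of the same length laid outwards from the clusters, 2 of 22 flank windows held no region, and their median was 3. The flank windows of HoxC held 3 to 13.

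**Figure D4:**
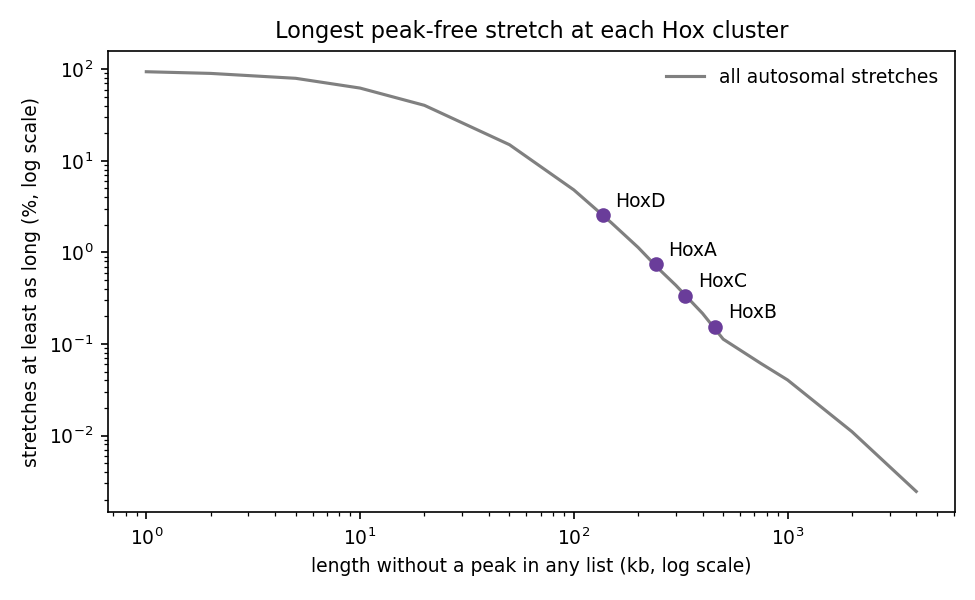
The grey line gives, for each length in kb (log scale), the percentage of autosomal stretches between neighbouring regions that are at least as long (log scale), and the points mark the longest stretch without a peak at each Hox cluster. HoxB (459.9 kb) and HoxC (332.5 kb) lie furthest out, at 0.155% and 0.336%.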

How the data were processed

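ATAC-seq libraries were made from the dentate gyrus of 3 individual mice of 1 group. Reads were aligned with Bowtie2 to mm9, per the submitters' processing notes. Each sample's deposited file lists its peaks, whose names are those of MACS, per the file contents. The caller's settings, filters and any Tn5 shift are not stated in the labels or files used here. The deposited score has no stated unit, starts at 50.0 in every list and was used as a percentile within its list. Start and end were deposited 0-based and are printed counted from 1. A peak counted in a cluster when at least 1 bp lay inside, and no peak of a list overlapped another. Autosomal density was taken over the span from first to last peak on each chromosome.

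Cluster and flank were compared within each animal by an exact two-sided sign-flip test of log2 ratios (percentile differences for scores). Regions were to be named by rule, the 5 highest-ranked, the widest and the longest stretch without a peak of each cluster, and with 3 regions all are named. Alternatives changed the flank width, the limits, the assignment of peaks, the list length, the overlap and the replicates. Counting, joining and the sign-flip test were first tested on simulated data with known answers. The intervals and lists were chosen with earlier results of these data known. The analyses intended for single promoters, pathway genes and cell type markers needed an mm9 annotation and were not run. The RefSeq tables (GRCm38.p6) gave names, gene order and promoter sequences only. Python 3.11.15, numpy 2.4.6, pandas 2.3.3 and matplotlib 3.10.9 were used. Errors are SD over animals. Read depth is unknown.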

Additional observations from a re-analysis of the deposited data

How the results depend on the processing

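Of 64 alternative values for 5 results, none changed direction. All drew on the same few cluster peaks or a part of them, and assigning peaks by midpoint changed no value. For the 4 results with a test, the side of the threshold could not change, since 3 animals cannot reach a p below 0.25, and several of their values moved a lot. In the highest-scoring 50% of each list, the number of cluster regions held by all 3 animals went from 1 to 0, because the HoxA peak of replicate 1 (percentile 44.8) was left out by construction. Leaving out 1 replicate gave 0.112 to 0.138 for the density ratio of cluster to flank, 0.0794 to 0.0846 for the ratio of covered shares, 0.759 to 0.907 for the width ratio, -22.5 to -3.93 for the difference in percentile and 1 in each case for the shared regions. The difference in percentile was -22.5 without replicate 3 and -3.93 without replicate 1. Taking flanks of 250 kb gave a density ratio of 0.157 and flanks of 1 Mb 0.106, while flanks of 100 kb, added after seeing the data along with the outer flanks and the omission of single clusters, gave 0.459. Those flanks also moved the ratio of covered shares to 0.261, the width ratio to 0.662 and the difference in percentile to -29.3. Without HoxC the ratio of covered shares was 0.165 and without HoxA 0.0219. Without HoxD the difference in percentile shrank to -1.99 ± 11.2 (SD, n = 3). Width and percentile had no value for the highest-scoring 50% or without HoxA, since 1 list then had no cluster peak. Cluster and flank were paired within each animal throughout. With a single group, replicate numbers pair no samples across conditions. Depth is unknown and the counts per cluster are 0 to 1 per animal, so no difference between clusters was tested.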
